A study of Homo sapiens with 10 samples.

Results

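Serum response factor (SRF) and 9 genes of the actin cytoskeleton were followed in breast cancer cells treated with the kinase inhibitor PKC412. The 10 genes were chosen by symbol: SRF itself, the actins ACTA2, ACTB and ACTG1, the filament proteins TAGLN, CNN1, MYL9 and TPM1, and the adhesion and crosslinking proteins VCL and FLNA. All 10 symbols were found among the 23426 in the deposited tables, and all 10 passed the filter on low values (mean FPKM over 0.1 in some group) that left 16071 genes for testing, CNN1 through the PKC412 samples of MDA-MB-468 alone. RNA was sequenced from MDA-MB-468 (MDAMB468 in the labels), an established line from a basal-like, triple-negative breast cancer, and from ZR75-1, an established luminal line. Each line had 2 samples in DMSO, the solvent, and 3 samples in 1 µM PKC412 (midostaurin, an inhibitor of many kinases), all taken after 6 h. Some figure legends of the study state a lower dose than the labels. The methods describe treatments made in triplicate ahead of RNA extraction, and do not say whether these were independent experiments, so p-values measure only the spread between these samples. Each subtype was studied in a single cell line, so line and subtype cannot be told apart.

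SRF binds DNA at a short motif called the CArG box and needs partner proteins to switch genes on. The partners MKL1 and MKL2 (the myocardin-related transcription factors) are held in the cytoplasm by monomeric actin and reach the nucleus when actin is drawn into filaments. Partners of the ELK family respond to MAP kinase signalling instead. Many SRF targets encode actin and the proteins that bind it, so the pathway feeds back on the filament system that controls it. Genes such as TAGLN, CNN1 and ACTA2 are best known from smooth muscle and myoepithelial cells.

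RefSeq promoter sequences, 250 bases before to 50 bases after a start site in GRCh38.p14, were found for 7 of the 10 genes and were read for the CArG box on both strands. SRF, ACTG1 and FLNA had a match, which was 42.9% of those 7 genes, against 1.6% of the 27305 genes with a promoter. The windows below are shown because they hold the motif that gives the gene set its name. Capitals mark the CArG boxes. The SRF window is chr6:43171149-43171268 on the plus strand, with boxes that start at -30 and -10 from the start site. The ACTG1 window is chr17:81512800-81512919 on the minus strand and the FLNA window is chrX:154374635-154374754 on the minus strand, each with 1 box that starts at -94.
SRF: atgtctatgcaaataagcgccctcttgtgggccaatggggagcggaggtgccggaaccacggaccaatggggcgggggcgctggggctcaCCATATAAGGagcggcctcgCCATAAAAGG
ACTG1: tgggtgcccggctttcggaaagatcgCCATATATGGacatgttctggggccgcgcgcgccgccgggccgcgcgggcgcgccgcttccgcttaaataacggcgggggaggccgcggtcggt
FLNA: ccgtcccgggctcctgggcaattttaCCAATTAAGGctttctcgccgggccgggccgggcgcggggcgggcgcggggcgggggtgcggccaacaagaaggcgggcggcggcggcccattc
Of the 2 SRF entries, the one shown held a pair of boxes and the other had no match, and none was found in the windows of ACTA2, CNN1, TPM1 and VCL. Motif matches are descriptions of sequence and not of binding, and a window without these letters says nothing about SRF at that gene. ACTB, TAGLN and MYL9 had no entry.

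Expression was measured as FPKM, fragments scaled by transcript length and library size, so that levels of different genes can be set side by side per length. The sums of FPKM ran from 599228 to 835069 per sample, and read numbers are unknown from these values. The lines differed in their defining genes. All 8 basal markers (EGFR, KRT5, KRT6B, KRT14, KRT16, KRT17, VIM and CAV1) were higher in MDA-MB-468 in DMSO, with summed FPKM of 2.76e+03 to 3.26e+03 in that line against 1.08 to 3.91 in ZR75-1. All 8 luminal markers were higher in every DMSO sample of ZR75-1 and 7 passed the limma test, KRT19 being the exception, and the summed level in MDA-MB-468 was still 3.01e+03 to 6.56e+03. Markers of fibroblasts, smooth muscle, blood and endothelium summed to 1.57 to 11.5 FPKM, and their highest gene was COL1A1. Of the 5 of these 9 markers that were tested, the endothelial PECAM1 passed the limma test with PKC412 in MDA-MB-468 (0.511 and 0.4295 FPKM in DMSO, 0.8905, 0.760 and 0.831 in PKC412) and COL1A1 passed in ZR75-1. The PECAM1 call was lost in 16 of 18 alternatives, among them the removal of any sample but MDA-MB-468 PKC412 replicate 2 (adjusted p up to 0.19).

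Per length, the 10 genes spanned levels from highly abundant to barely detected. In DMSO-treated MDA-MB-468 cells mean FPKM was 5416 for ACTB and 2143 for ACTG1, the cytoplasmic actins found in every cell. FLNA and TPM1 followed at 193 and 186, and TAGLN, MYL9, SRF and VCL lay between 28.5 and 9.11. ACTA2, the smooth muscle α-actin, had a mean of 0.231. Together the 10 genes made up 1.05% to 1.15% of all FPKM in MDA-MB-468 samples and 0.66% to 0.763% in ZR75-1 samples, and nearly all of this was actin. ACTB ranked 6th to 12th of all genes in MDA-MB-468 and 17th to 37th in ZR75-1. Gene annotation (GENCODE 29) holds 10 pseudogenes named after ACTB and 20 named after ACTG1, and reads of these near-identical sequences may be divided between copies, so both values are uncertain to that extent.

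**Figure D1:**
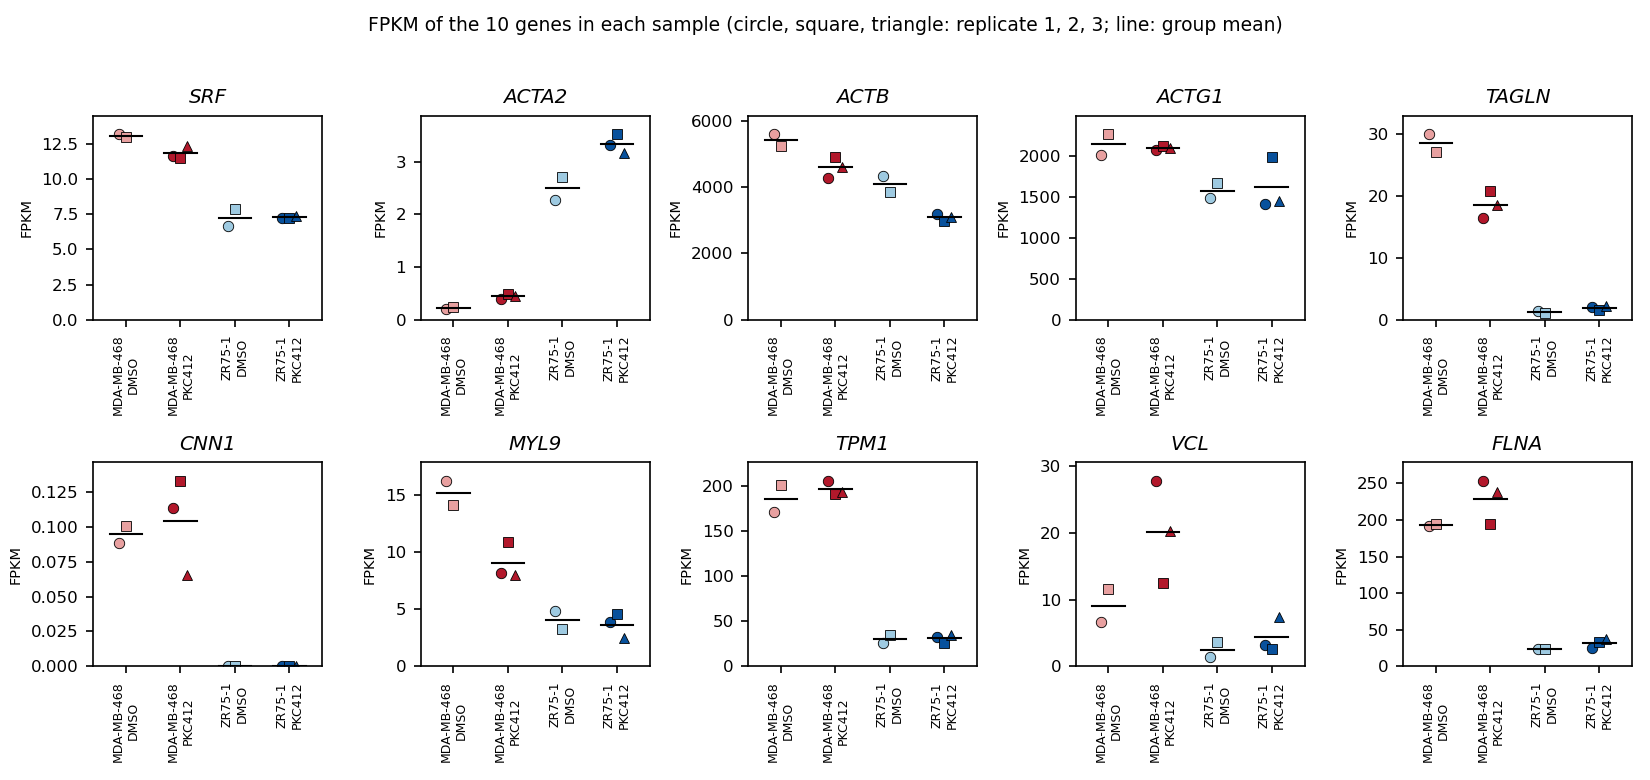
FPKM (linear axis from 0, a separate scale for each gene) of the 10 genes in the 4 groups. Points are samples, with circle, square and triangle for replicates 1, 2 and 3, and horizontal lines are group means. Within a treatment the ranges of the 2 lines are apart for every gene, and CNN1 is listed at 0 in all ZR75-1 samples. The share of all genes apart in this way was not computed.

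The first question was whether PKC412 changed these genes in MDA-MB-468, the basal-like line. None of the 10 genes passed the test at 6 h. With limma on log2(FPKM + 1) and Benjamini-Hochberg adjustment, 0 of 10 genes had an adjusted p under 0.05, where 1.26% of all genes tested did, and the lowest adjusted p was 0.147. At an unadjusted limma p under 0.05 there were 2 genes, TAGLN and MYL9, against 16.4% of all genes. The median log2 difference of the 10 genes was -0.01, and that of all genes tested was 0.11. The 10 genes were also counted by whether the samples overlapped. Both PKC412 ranges above DMSO belonged to ACTA2 and VCL, where 39.6% of all genes had every PKC412 sample higher, and 4 genes (SRF, ACTB, TAGLN and MYL9) had every PKC412 sample lower, as did 16.3% of all genes. Mean FPKM differed 3-fold or more in 0 of the 10 genes, against 7.21% of the genes with a mean FPKM above 0.1 in DMSO or PKC412.

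The regulator itself differed little. SRF measured 13.2 and 13.0 FPKM in DMSO and 11.6, 11.5 and 12.3 in PKC412. The PKC412 samples were all slightly lower, with a log2 difference of -0.14 (SE 0.11, limma adjusted p = 0.47) and a 95% confidence interval from -0.39 to 0.12. The interval held small changes in either direction.

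Among the actins, ACTB measured 5586 and 5245 FPKM in DMSO and 4281, 4891 and 4591 in PKC412, a log2 difference of -0.24 (SE 0.16, limma adjusted p = 0.40). ACTG1 measured 2019 and 2267 in DMSO and 2076, 2129 and 2093 in PKC412, and its groups overlapped. The ratio of ACTB to ACTG1, which relates the cytoplasmic actins within each sample, was 2.77 and 2.31 in DMSO and 2.06, 2.3 and 2.19 in PKC412. ACTA2 stood far below both, at 0.210 and 0.251 FPKM in DMSO and 0.394, 0.496 and 0.457 in PKC412. Its PKC412 samples were all higher, by 0.24 on the log2(FPKM + 1) scale (SE 0.11, limma adjusted p = 0.32), a scale that understates the change of low genes. The ratio of means for ACTA2 was 1.95. The genes STAMBPL1 and FAS overlap the span of ACTA2 on the opposite strand, and whether their exons share bases with its exons was not examined. Reads from any shared bases cannot be told apart unless strand was used, and whether it was is not given in the sources used here. FAS measured 0.0584 and 0.188 in DMSO and 0.946, 0.418 and 0.443 in PKC412, and STAMBPL1 measured 3.27 and 4.89 against 6.45, 5.78 and 5.93. Both were higher in every PKC412 sample, as ACTA2 was, and their part in its value was not tested.

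Among the filament proteins, TAGLN and MYL9 had the lowest p-values of the 10 genes, and TPM1 and CNN1 were among the highest. TAGLN (transgelin), an actin-binding protein of smooth muscle and of spread cells, measured 29.9 and 27.1 FPKM in DMSO and 16.4, 20.7 and 18.5 in PKC412. Every PKC412 sample was lower, the ratio of means was 0.65, and the log2 difference was -0.60 (SE 0.16), with a 95% confidence interval from -0.96 to -0.24. The adjusted p of 0.15 in limma did not pass. PCSK7, which overlaps TAGLN on the opposite strand, stayed between 17.4 and 19.1 FPKM in the same samples. MYL9, a regulatory light chain of myosin II, measured 16.2 and 14.1 in DMSO and 8.22, 10.9 and 8.05 in PKC412. Again every PKC412 sample was lower, with a log2 difference of -0.69 (SE 0.24, limma adjusted p = 0.25). TPM1, a tropomyosin that lies along the filament, measured 171 and 201.0 FPKM in DMSO and 205, 191 and 194 in PKC412. Its groups overlapped, the log2 difference was 0.08 with a 95% confidence interval from -0.29 to 0.46, and the sign turned with FPKM rescaled by median ratios. CNN1 (calponin 1), a smooth muscle protein, was barely detected, at 0.0886 and 0.101 in DMSO and 0.114, 0.133 and 0.0657 in PKC412.

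The means of VCL and FLNA, which anchor and crosslink filaments, were higher with PKC412, without passing the test. VCL (vinculin), which links actin to focal adhesions, measured 6.67 and 11.6 FPKM in DMSO and 27.8, 12.5 and 20.4 in PKC412. Every PKC412 sample was higher and the ratio of means was 2.22, but the samples of each group were far apart and the log2 difference of 1.05 had an SE of 0.49 (limma adjusted p = 0.31). Without DMSO replicate 2 the ratio of means passed 3, and the log2 difference without a single sample ranged from 0.69 to 1.40. AP3M1, on the opposite strand over VCL, measured 3.06 and 4.33 in DMSO and 7.84, 4.35 and 6.42 in PKC412, the same order of samples as VCL, and its part was not tested. FLNA (filamin A), a crosslinker of actin networks, measured 191 and 194 in DMSO and 253, 194 and 238 in PKC412, with overlapping groups and a log2 difference of 0.23 (SE 0.17, limma adjusted p = 0.44).

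In MDA-MB-468, VCL was ordered along with a difference between the samples in how GC-rich genes read. For each sample, the deviation of every gene from its line mean (log2) was regressed on the GC content of its transcript in GENCODE. The resulting GC slope, per 10 percentage points of GC, was 0.373 and 0.0573 in the DMSO samples of MDA-MB-468 and -0.287, -0.0240 and -0.119 in the PKC412 samples, so GC-rich genes read relatively higher in both DMSO libraries. VCL, at 47.9% GC, was ordered exactly against the slope over the 5 samples. An adjustment of FPKM for transcript GC content and length was added after seeing the data, and VCL then measured 8.83 and 12.6 in DMSO and 21.0, 13.3 and 17.6 in PKC412. PKC412 samples remained higher, and the log2 difference was 0.64 in place of 1.05. TPM1, at 45.9% GC, went from 0.08 to -0.37 with the same adjustment and passed the test with neither. The genes lower in every PKC412 sample of MDA-MB-468 were GC-rich: SRF 60.9%, MYL9 60.5%, TAGLN 56.3% and ACTB 56%. FLNA (62.2%), CNN1 (59%) and ACTG1 (57.8%) were GC-rich as well, and their groups overlapped. The log2 differences of these genes were 0.23, 0.01 and -0.03, with CNN1 barely detected. Over 19 alternatives, this adjustment among them, log2 differences were -0.25 to -0.12 for SRF and -0.36 to -0.15 for ACTB. They were -0.82 to -0.53 for MYL9 and -0.715 to -0.52 for TAGLN. In MDA-MB-468 the slope also separated the treatments, so an effect of the drug along GC content and a property of the libraries cannot be told apart.

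**Figure D2:**
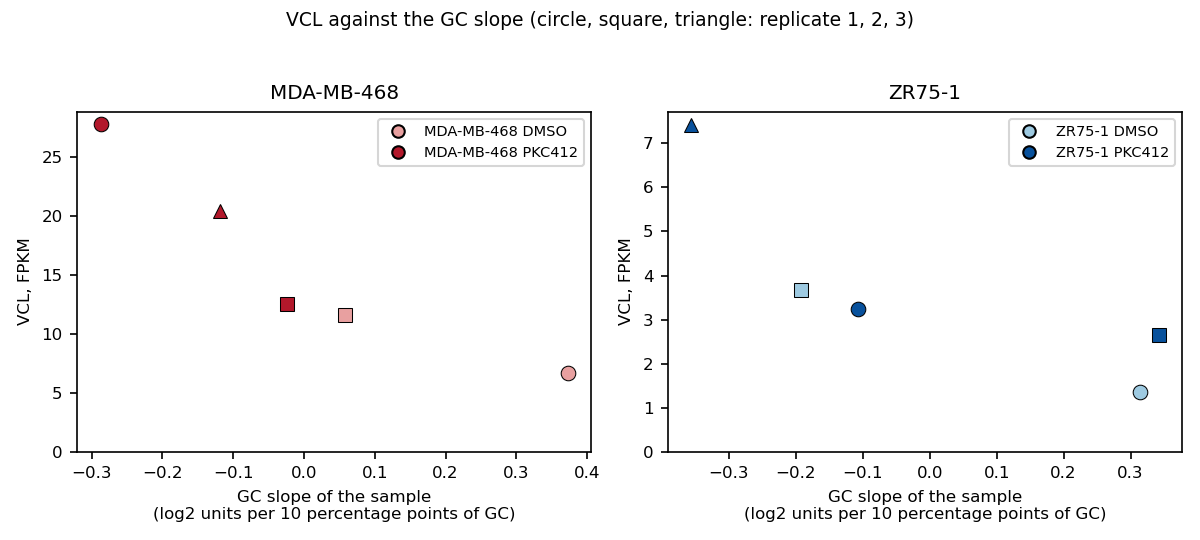
VCL level (y axis, FPKM) against the GC slope of each sample (x axis, log2 per 10 points of GC), left MDA-MB-468 and right ZR75-1, with light points for DMSO, dark points for PKC412 and the shape for the replicate number. In MDA-MB-468 the level goes from 6.67 at a slope of 0.373 to 27.8 at -0.287, and in ZR75-1 the highest level, 7.42, is at the lowest slope, -0.356.

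The same comparison in ZR75-1 also gave no gene past the threshold. With limma, 0 of 10 genes had an adjusted p under 0.05, against 0.946% of all genes tested, and the lowest adjusted p was 0.368. An unadjusted limma p under 0.05 was found for 3 genes, ACTA2, ACTB and TAGLN, against 11.2% of all genes. Every PKC412 sample was higher than every DMSO sample for 3 genes (ACTA2, TAGLN and FLNA), where 14.8% of all genes were, and lower for 1 gene (ACTB), where 6.98% of all genes were. A 3-fold ratio of means was reached by 0 of the 10 genes, against 4.09% of the genes compared. The median log2 difference was 0.03 for the 10 genes and 0.07 for all genes.

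SRF in ZR75-1 measured 6.66 and 7.84 FPKM in DMSO and 7.25, 7.21 and 7.38 in PKC412, all of the latter inside the DMSO range. ACTB measured 4319 and 3847 in DMSO and 3190, 2981 and 3109 in PKC412. It was lower in every PKC412 sample, as in the other line, with a log2 difference of -0.40 (SE 0.16, limma adjusted p = 0.41). ACTG1 measured 1484 and 1668 against 1418, 1988 and 1452, and its groups overlapped. The lone high value, in PKC412 replicate 2, also gave the lowest ratio of ACTB to ACTG1, 1.5, where the other ZR75-1 samples lay between 2.14 and 2.91. ACTA2 measured 2.28 and 2.71 in DMSO and 3.32, 3.52 and 3.17 in PKC412, a log2 difference of 0.31 (SE 0.11, limma adjusted p = 0.37). The genes that overlap ACTA2 were not ordered in this way in ZR75-1, where FAS and STAMBPL1 overlapped between treatments. COL1A1, a collagen gene of fibroblasts, rose from 2.25 and 2.75 to 9.11, 6.65 and 11.1 FPKM in ZR75-1 (log2 difference 1.49, limma adjusted p = 0.018), while the collagen genes COL1A2 and COL3A1 were listed at 0 in all 5 samples of that line. This COL1A1 call was lost in 10 of 19 alternatives, with an adjusted p up to 0.15 among those that left out a sample (any but PKC412 replicate 2 of MDA-MB-468 and PKC412 replicates 2 and 3 of ZR75-1). The part of such cells in the ACTA2 value was not tested.

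TAGLN was low in ZR75-1, at 1.45 and 1.12 FPKM in DMSO and 2.06, 1.60 and 2.19 in PKC412. All PKC412 samples were higher, by 0.37 on the log2 scale (SE 0.16, limma adjusted p = 0.44). MYL9 measured 4.88 and 3.25 against 3.86, 4.61 and 2.53, with a spread within PKC412 wider than the difference of the means. TPM1 measured 26.1 and 34.6 in DMSO and 32.5, 25.9 and 35.1 in PKC412, and CNN1 was listed at 0 in all 5 samples. Neither gene separated the treatments. VCL measured 1.35 and 3.66 against 3.23, 2.65 and 7.42, with its highest value in the sample of lowest GC slope. FLNA measured 24.2 in both DMSO samples and 25.7, 33.6 and 37.7 in PKC412, a log2 difference of 0.39 (SE 0.17, limma adjusted p = 0.46).

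**Figure D3:**
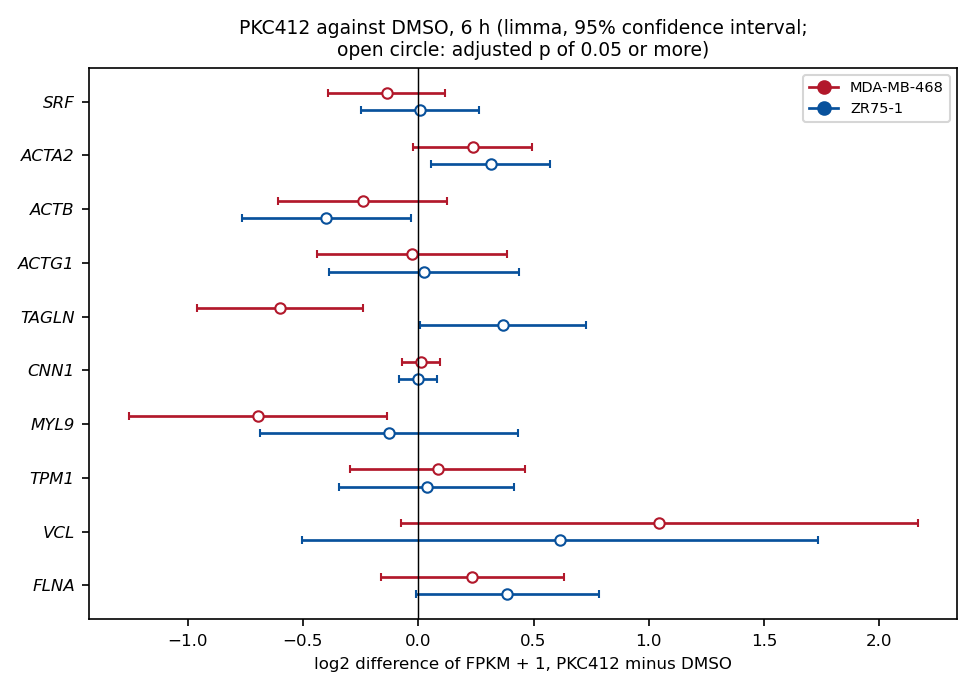
Log2 difference of FPKM + 1, PKC412 minus DMSO (x axis), for the 10 genes in MDA-MB-468 and ZR75-1, with the 95% confidence interval from limma as horizontal bars. All circles are open, since no adjusted p was under 0.05, and TAGLN is the gene whose intervals lie on opposite sides of 0, at -0.60 and 0.37.

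The design also asked whether the lines responded differently, and the difference of the responses was fitted in the same model. None of the 10 genes passed (limma, adjusted p under 0.05), as against 0.268% of all genes, and 1 of 10, TAGLN, had an unadjusted limma p under 0.05, as against 7.05% of all genes. For TAGLN, which was lower with PKC412 in all 3 MDA-MB-468 samples and higher in all 3 ZR75-1 samples, the responses differed by -0.97 on the log2 scale (SE 0.22, limma adjusted p = 0.21). This gene was the only one of the 10 whose samples were apart in both lines in opposite directions. The shares of all genes apart in both lines, in opposite directions or in the same one, were not computed. Nothing is therefore read from which members were apart in both lines. MYL9 came next with a difference of -0.57 (SE 0.34, limma adjusted p = 0.90), and the adjusted p of the other 8 genes lay between 0.95 and 0.97. ACTB was lower and ACTA2 higher with PKC412 in every sample of both lines, and their responses differed by 0.16 (95% confidence interval from -0.36 to 0.68) and -0.08 (from -0.44 to 0.29).

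The lines themselves differed far more than the treatments. CNN1 is left out of the counts here, since it entered the test only through the group where it was highest. In DMSO, 7 of the other 9 genes passed the test between lines (limma, adjusted p under 0.05), against 42.4% of all genes tested. Of these, 6 were higher in MDA-MB-468, against 26.5% of all genes, and ACTA2 was higher in ZR75-1. In PKC412, 8 of the 9 passed, against 58.6% of all genes, 7 of them higher in MDA-MB-468, against 37% of all genes. The median log2 difference of the 9 genes was 1.57 in DMSO and 1.12 in PKC412, with 0.11 and 0.20 over all genes. No sample of one line reached into the range of the other for these 9 genes in either treatment. The share of all genes apart in this way was not computed, so nothing is read from it. The DMSO and PKC412 comparisons use different samples.

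TAGLN had the widest gap of these 9 genes in DMSO, with 27.1 to 29.9 FPKM in MDA-MB-468 and 1.12 to 1.45 in ZR75-1. Its log2 difference was 3.70 (SE 0.17, limma adjusted p = 1.69e-06) in DMSO and 2.73 (SE 0.14) in PKC412. FLNA and TPM1 followed with log2 differences of 2.94 (SE 0.19) and 2.58 (SE 0.18) in DMSO, and 2.79 and 2.63 in PKC412, which were ratios of 7.97 and 6.12 between the DMSO means. Each of these genes for filament-binding proteins was lower in ZR75-1 in all 5 samples. MYL9 differed by 1.69 (SE 0.27) in DMSO and 1.12 (SE 0.22) in PKC412. VCL differed by 1.57 in DMSO (SE 0.53, limma adjusted p = 0.045) and 2.00 in PKC412 (SE 0.43, limma adjusted p = 0.0046). The DMSO call for VCL was lost in 9 of 19 alternatives, with an adjusted p of 0.23 without MDA-MB-468 DMSO replicate 2 and of 0.23 without ZR75-1 DMSO replicate 1, where the log2 difference was 1.21 and 1.08. It was also lost, with adjusted p of 0.063 to 0.068, without replicate 1 of MDA-MB-468 DMSO, replicate 3 of MDA-MB-468 PKC412 or replicate 1 of ZR75-1 PKC412. The PKC412 difference held in all 19.

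SRF was higher in MDA-MB-468 as well, by 0.77 on the log2 scale in DMSO (SE 0.12, limma adjusted p = 0.0012) and 0.63 in PKC412 (SE 0.10), a ratio of means of 1.80 and 1.62. The cytoplasmic actins were closer. ACTB differed by 0.41 in DMSO (SE 0.17, limma adjusted p = 0.096), which did not pass but did in 3 of 19 alternatives (adjusted p down to 0.013), and by 0.57 in PKC412 (SE 0.14, limma adjusted p = 0.0093), which passed but was lost with median-ratio rescaling (0.37, adjusted p = 0.22). ACTG1 differed by 0.44 (SE 0.20) and 0.39 (SE 0.16) and passed in neither treatment. It passed in PKC412 in 4 of 19 alternatives (limma adjusted p down to 0.0096) and in DMSO in 1, and in both without ZR75-1 PKC412 replicate 2 (0.44, limma adjusted p = 0.043, and 0.55, adjusted p = 0.011). ACTA2 went the other way, with a log2 difference of -1.50 (SE 0.12, limma adjusted p = 2.98e-05) in DMSO and -1.58 in PKC412. Its mean FPKM in ZR75-1 was 10.8 times that in MDA-MB-468 in DMSO and 7.43 times in PKC412. CNN1 was listed at 0 in every ZR75-1 sample and stood near 0.1 FPKM in MDA-MB-468. Its level cannot be told from 0 by these values, so no fold is given and nothing is read from its test.

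**Figure D4:**
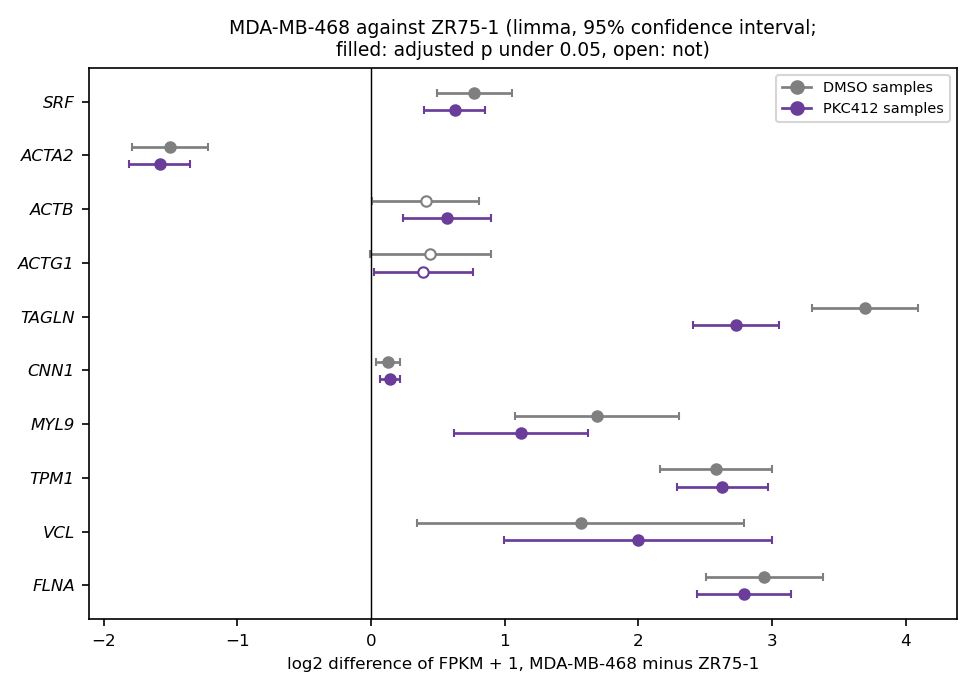
Log2 difference of FPKM + 1, MDA-MB-468 minus ZR75-1 (x axis), for the 10 genes in DMSO (grey) and PKC412 (purple) samples, with 95% confidence intervals from limma. Filled circles had an adjusted p under 0.05, from which nothing is read for CNN1. ACTA2 is the gene to the left of 0, at -1.50 and -1.58, and TAGLN has the value farthest to the right, 3.70 in DMSO.

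Other genes of the pathway were described from 8 lists with 66 genes, of which 63 passed the filter on low values. The cofactors of SRF came first. MKL1 measured 8.03 and 8.40 FPKM in DMSO and 7.70, 6.61 and 7.45 in PKC412 in MDA-MB-468, and 3.52 and 3.91 against 3.36, 3.46 and 4.25 in ZR75-1. It was higher in MDA-MB-468 in DMSO, with a log2 difference of 0.97 (SE 0.16, limma adjusted p = 0.0013). MKL2 did not exceed 1.705 FPKM in any sample. In MDA-MB-468 it measured 0.0856 and 0.236 in DMSO and 0.981, 0.339 and 0.590 in PKC412, a ratio of means of 3.96. The log2 difference there was 0.48 (SE 0.31, limma adjusted p = 0.39). In ZR75-1 its groups overlapped, with a ratio of 1.84. MYOCD, the cofactor of heart and smooth muscle, was listed at 0 in all samples but 1, at 0.0117. The ternary complex factors ELK1, ELK3 and ELK4 had log2 differences with PKC412 of 0.32, 0.42 and 0.37 in MDA-MB-468 and 0.33, -0.02 and 0.09 in ZR75-1. ELK3 was low in MDA-MB-468, at 0.132 and 0.202 FPKM in DMSO and 1.025, 0.238 and 0.531 in PKC412. Its ratio of means was 3.58 there and 0.874 in ZR75-1, and the log2(FPKM + 1) scale understates the change of such low genes. In MDA-MB-468 a 3-fold ratio, as for MKL2 and ELK3, was reached by 7.21% of the genes compared. Of the 5 cofactors tested, 0 passed the limma test in either line (lowest limma adjusted p 0.30 and 0.56).

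The lists of structural genes held no gene that passed with PKC412 in either line. In MDA-MB-468 these were 8 myosin II genes with a median log2 difference of 0.15, 9 tropomyosin, calponin and other filament binding genes with 0.00, 15 crosslinkers and focal adhesion genes with 0.11, and 11 genes of the actin monomer pool and turnover with -0.25. In ZR75-1 the medians of these lists lay between -0.09 and 0.16. All genes tested had medians of 0.11 and 0.07. Immediate-early SRF targets (8 tested, among them FOS and the EGR genes) had medians of 0.02 and -0.05, and 0 of 8 passed. FOS was the 1 gene of these whose groups were apart in ZR75-1. It measured 0.224 and 0.660 FPKM in DMSO and 1.305, 2.27 and 2.05 in PKC412, a ratio of means of 4.25. The log2 difference was 1.00 (SE 0.20, limma adjusted p = 0.090), and 0.43 in MDA-MB-468. The other actin isoforms with a value to test, ACTA1 and ACTG2, had log2 differences of 0.17 and -0.06 in MDA-MB-468 and 0.05 and 0.04 in ZR75-1. Over all 8 lists, 31 of 63 genes tested were higher in MDA-MB-468 than in ZR75-1 in DMSO (limma), where 26.5% of all genes were, and 7 were lower, where 15.9% of all genes were. The 31 include ANKRD1, which passed the filter only through the DMSO samples of MDA-MB-468.

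The exception was the list named for SRF targets shared with YAP, a coactivator that responds to cell shape and tension. In MDA-MB-468, 4 of its 5 genes passed the limma test (adjusted p under 0.05) as lower with PKC412, where 0.566% of all genes did. CTGF, which encodes a secreted matricellular protein, measured 7.40 and 9.305 FPKM in DMSO and 0.884, 0.622 and 0.658 in PKC412, a log2 difference of -2.44 (SE 0.12, limma adjusted p = 8.2e-05). CYR61, a matricellular protein of the same family, measured 27.95 and 32.3 in DMSO and 5.93, 5.09 and 5.35 in PKC412, a log2 difference of -2.27 (SE 0.21, limma adjusted p = 0.0036). ANKRD1, an ankyrin repeat protein, went from 1.74 and 2.66 to 0.0693, 0.0619 and 0.0631, with a log2 difference of -1.57 (SE 0.10, limma adjusted p = 0.00061). For these genes the DMSO and PKC412 samples were far apart. ANKRD1 passed the filter only through the DMSO samples of MDA-MB-468, and without it the count is 3 of 4. AMOTL2, an angiomotin-like protein of cell junctions, measured 11.3 and 15.4 in DMSO and 3.83, 2.65 and 3.35 in PKC412, a log2 difference of -1.74 (SE 0.31, limma adjusted p = 0.043). This call was lost when any 1 of 8 samples was left out, with adjusted p up to 0.22: each of the 5 MDA-MB-468 samples (log2 differences from -1.95 to -1.53) and each of the 3 ZR75-1 PKC412 samples, which enter only through the shared spread. The fifth gene, THBS1 (thrombospondin 1), measured 3.97 and 7.33 against 5.69, 3.50 and 4.51 and overlapped. The median of the list was -1.74, where the median of all genes was 0.11. A CArG box was found in 0 of the 4 genes of this list with a promoter, against 1.6% of all genes. The part of SRF or of YAP in these changes was not tested.

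In ZR75-1, 0 of the 5 passed. CYR61 measured 2.32 and 4.15 FPKM in DMSO and 1.23, 1.72 and 1.81 in PKC412, with a log2 difference of -0.68 (SE 0.21, limma adjusted p = 0.28). CTGF was at 0.180 and 0.203 in DMSO and at 0.0404, 0.0287 and 0.0853 in PKC412, and ANKRD1 at 0.0381 and 0.0261 in DMSO and listed at 0 in PKC412, levels that were low before treatment. ANKRD1 is left out of the comparison of lines, since it passed the filter only through the DMSO samples of MDA-MB-468. Each other gene of this list was higher in MDA-MB-468 than in ZR75-1 in DMSO (limma), where 26.5% of all genes were. The list was chosen with results of these data known, and its count is a description.

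**Figure D5:**
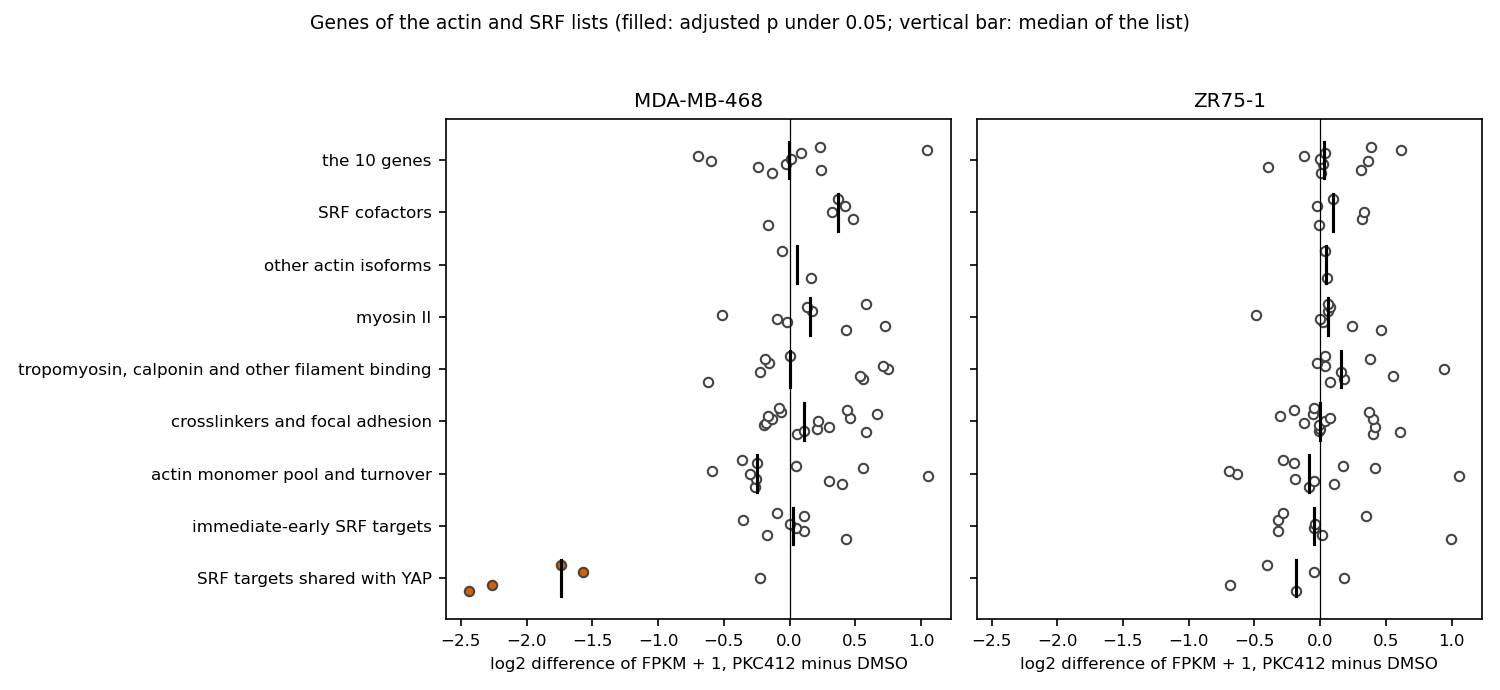
Log2 difference of FPKM + 1, PKC412 minus DMSO (x axis), for each tested gene of the 10 genes and of the 8 pathway lists (y axis), in MDA-MB-468 and ZR75-1. Filled points had an adjusted p under 0.05 in limma and vertical bars are list medians. The 4 filled points, from -2.44 to -1.57, all belong to the SRF targets shared with YAP in MDA-MB-468.

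Last, genes whose level followed that of SRF were ranked by Pearson's r over the 10 samples, on log2(FPKM + 1) centred on the mean of each line, among 8732 genes with a mean FPKM above 1 in every group. The 5 highest outside the gene set were NEK6 (r = 0.914), FAIM3 (0.895), CHST14 (0.891), C19orf71 (0.884) and C7orf43 (0.860). SRF transcripts are GC-rich (60.9%), and the 10 samples share the library differences in GC slope, so this ranking is a description only. The other 9 members had r with SRF from -0.458 for CNN1 to 0.439 for TAGLN.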

How the data were processed

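The authors deposited FPKM values per gene symbol, 1 table per sample for 10 samples, made with an in-house pipeline. The submitters' notes name CASAVA 1.82, TopHat2 and the hg19 build, and the annotation, the counting tool and the use of strand are not given in the sources used here. Values went down to 2.194e-318, and no step of single reads was seen, so depth is unknown and precision came from the spread between replicates. No 2 samples held identical values.

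Differences were tested with limma 3.58.1 (R 4.3.3) on log2(FPKM + 1), 2-sided, fitting the 4 group means together with eBayes (trend). The 16071 genes whose mean FPKM exceeded 0.1 in some group were tested, and Benjamini-Hochberg adjustment ran over all of them. No exact permutation test was used, since 2 samples against 3 give at best p = 0.1. The script was tested on simulated data. Python 3.11.15 was used for the rest. Ratios of mean FPKM took genes with a mean above 0.1 in DMSO or PKC412 of the line.

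The 10 members and the gene lists were chosen with earlier results of these data known, and 1 further list is not reported here. Named genes were all members, the list genes called with PKC412 in either line, all cofactors of SRF, and the 5 genes most like SRF. Genes named outside this rule (THBS1, ACTA1, ACTG2, FOS, the markers, the overlapping genes and those named under the dependence on processing) were chosen after their values were seen. GC content and length came from GENCODE 29 (GRCh38) by symbol, with 88.1% of genes matched. Slopes and adjustments were computed within each line, the adjustment with polynomials of degree 3.

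Alternatives were a pseudocount of 0.1, no filter, a filter at an FPKM of 1, median-ratio rescaling, the replicate number as a block, eBayes without the trend, the samples of 1 comparison alone, a 2-fold threshold or a pseudocount of 1 for ratios, and each sample left out. The adjustment for GC content and length, alone and with the block, was chosen after seeing the data. Of 19 alternatives for limma, 10 left out a sample.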

Additional observations from a re-analysis of the deposited data

Results flagged for a closer look

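Among the genes described, CTGF and ANKRD1 passed the limma test of the difference between the PKC412 responses of the 2 lines. For CTGF the response in MDA-MB-468 minus that in ZR75-1 was -2.26 on the log2(FPKM + 1) scale (SE 0.17, limma adjusted p = 0.0019). Its level was lower in 3 of 3 PKC412 samples of each line, and in ZR75-1 the DMSO level was 0.180 to 0.203 FPKM. From that level it could fall by at most 0.25 on this scale, and the ratio of mean FPKM, PKC412 to DMSO, was 0.0864 for MDA-MB-468 and 0.269 for ZR75-1. With a pseudocount of 0.1 the difference was -2.41 with an adjusted p of 0.074, which does not pass. For ANKRD1 the difference was -1.53 (SE 0.15, limma adjusted p = 0.0079), again with a DMSO level in ZR75-1 of at most 0.0381 FPKM, from which it could fall by at most 0.0456. ANKRD1 also passed the filter on low values only through the DMSO samples of MDA-MB-468. The low starting level in ZR75-1 bounds both values, so they do not show that the lines respond differently. Apart from the fits with the replicate number as a block, the pseudocount of 0.1 for CTGF was the only alternative in which one of these differences did not pass. CYR61 and AMOTL2, of the same list, started higher in ZR75-1 and could fall by 2.05 and 2.29. Their differences of -1.58 (SE 0.30, limma adjusted p = 0.11) and -1.33 (SE 0.44, limma adjusted p = 0.50) did not pass. The CYR61 difference passed in 2 of 18 alternatives (limma adjusted p down to 0.010), and that of AMOTL2 in 0. TAGLN had the lowest p-value of the members for the difference between responses and did not pass (limma adjusted p = 0.21, and 0.11 to 0.89 over 18 alternatives). Groups of 2 or 3 samples were too small for a search for outlying samples.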

How the results depend on the processing

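Of the 10 members, 0 passed with PKC412 in either line, or for the difference between lines, in limma and under each alternative. Between lines, 6 to 9 members passed in DMSO and 7 to 10 in PKC412, in place of 8 and 9. These counts include CNN1, from which nothing is read, and without it the main counts were 7 and 8 of 9. Over all genes the same alternatives gave 5001 to 9515 in DMSO and 7436 to 11090 in PKC412. The main counts were 6822 and 9421 of 16071, and the number of genes tested varied between alternatives. Whether the replicate numbers pair the samples cannot be settled from these values, since the deviations of 2 DMSO samples mirror each other. Deviations from the group mean of samples with the same number had r of -0.407 and -0.234 in MDA-MB-468 and of 0.084 and -0.512 in ZR75-1. With the replicate block, 0 genes of the pathway lists passed in MDA-MB-468, in place of 4, and 0 of all genes passed in either line. After adjustment for GC content and length 7 list genes passed in MDA-MB-468 (THBS1, TLN2 and MYLK in addition) and 2 in ZR75-1 (CYR61 and FOS), and with the block as well 0 in MDA-MB-468. With a sample left out, 3 to 4 list genes passed in MDA-MB-468 and 0 in ZR75-1. At a 2-fold ratio of means 1 member passed in MDA-MB-468 (VCL). At 3-fold, 0 to 1 passed in either line when a sample was left out (VCL both times, without DMSO replicate 2 of MDA-MB-468 and DMSO replicate 2 of ZR75-1). The shares of all genes at 2-fold, and at 3-fold with a sample left out, were not computed, so nothing is read from these ratio counts.

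Over all genes, 202 passed with PKC412 in MDA-MB-468 and 152 in ZR75-1. These counts were 116 and 138 with a pseudocount of 0.1, 0 and 0 with the block, 81 and 12 in fits of a line alone, 579 and 447 after adjustment for GC content and length, 3 and 3 with the block added to it, and 65 to 324 and 59 to 183 with a sample left out. For the difference between lines, 43 genes passed, and 27 with a pseudocount of 0.1, 68 without a filter, 68 without the trend, 0 with the block, 214 after the GC and length adjustment and 16 to 64 with a sample left out. With the block added to that adjustment it was 0.

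Small drug differences turned in sign without passing in either form. With median-ratio rescaling these were SRF (-0.0925), ACTG1 (-0.0909) and TPM1 (-0.0744) in ZR75-1 and TPM1 (-0.0383) in MDA-MB-468. With the block they were SRF (-0.0001), MYL9 (0.0632) and TPM1 (-0.0516) in ZR75-1. After adjustment for GC content and length they were SRF (-0.13), ACTG1 (-0.0562) and TPM1 (-0.22) in ZR75-1 and ACTG1 (0.0506) and TPM1 (-0.37) in MDA-MB-468, and with the block added -0.12, -0.0186, -0.10, 0.0718 and -0.35. With a sample left out, the ranges in ZR75-1 were -0.10 to 0.11 for SRF, -0.13 to 0.11 for ACTG1, -0.36 to 0.11 for MYL9, -0.16 to 0.23 for TPM1 and -0.87 to 0.0556 for AMOTL2, and in MDA-MB-468 -0.11 to 0.0561 for ACTG1 and -0.0326 to 0.20 for TPM1. Of the single-gene values under the alternatives, 939 kept their direction and side of the threshold, 28 turned in sign, 65 lost a call and 11 gained one. The causes were not tested.

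Depth is unknown, so values near the filter of 0.1 FPKM, such as CNN1, cannot be told from 0 by counting error. The samples covered 1 line per subtype and 1 time, and 2 DMSO samples per line limited the precision of every drug difference.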
